A study of Drosophila melanogaster with 9 samples.

Results

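S2 cells, an established Drosophila melanogaster line of macrophage character that came from late embryos, were profiled on 9 Affymetrix Drosophila Genome 2.0 arrays of 1 color. The genes followed here encode translation initiation factors (eIF), elongation factors (eEF) and aminoacyl-tRNA synthetases. They were taken by symbol from the platform annotation: every symbol starting with eIF or eEF, and every amino acid name of 3 letters followed by RS or RS-m. This gave 74 genes of the 11573 that had a probe set of their own, with 40 initiation factors, 5 elongation factors and 29 synthetases. Of the synthetases, 14 carry the suffix -m of the mitochondrial enzymes. A gene with several probe sets is represented by the one with the highest mean over the 9 arrays.

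The arrays form 3 groups of 3. NELF dsRNA cells received double-stranded RNA (dsRNA) against NELF-B and NELF-E, subunits of NELF, a complex that keeps paused RNA polymerase II close to the start site, for 72 h. LacZ dsRNA cells received dsRNA against bacterial beta-galactosidase for 72 h as the mock treatment, and untreated cells received no dsRNA. All groups were grown in the same medium with 10% serum. The labels do not state that arrays within a group are separate cultures. The p-values therefore cover the variation among these arrays, part or all of which may be technical. Values are log2 intensities per probe set, and they serve to compare arrays for 1 gene, not genes with each other. The comparisons ask whether loss of NELF, or dsRNA as such, altered the messenger RNAs of the translation machinery.

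Translation starts when eIF2 carries the initiator tRNA to the small ribosomal subunit, with eIF1 and the many-subunit eIF3 complex bound there. eIF2B reloads eIF2 with GTP, and the eIF4 proteins bring in the mRNA through its cap. Elongation factors then deliver charged tRNAs and move the ribosome, and the synthetases charge each tRNA with its amino acid, with separate enzymes in cytosol and mitochondria for most amino acids. These genes are expressed in nearly all growing cells, and several have copies that in the fly are used mainly in testis or other restricted tissues.

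The dsRNA targets were low on every NELF dsRNA array. NELF-B lay at 4.76, 4.83 and 4.54 (log2 intensity) after NELF dsRNA, at 7.41, 7.47 and 7.63 after LacZ dsRNA and at 7.41, 7.17 and 7.16 in untreated cells. Nelf-E lay at 2.52, 3.65 and 3.82 after NELF dsRNA, at 7.98, 7.81 and 7.48 after LacZ dsRNA and at 7.83, 7.93 and 7.85 in untreated cells. Of 9 hemocyte markers, 4 (Col4a1, Pxn, srp and vkg) were above the detection limit on all 9 arrays, while NimC1 was below it on all. That limit was 3.77, the 95th percentile of the control probe sets. Among the few markers of other tissues that were named, up of muscle and Fbp1 and Yp1 of fat body were above the limit on no array, while the neuronal gene elav was above it on all. Neither of 2 germline markers was above it on every array. Arrays measured between 13854 probe sets (NELF dsRNA array 3) and 14196 (LacZ dsRNA array 3).

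Most of the translation genes were well detected. On all 9 arrays 64 of the 74 (86.5%) were above the limit, against 49.3% of all 11573 genes. This included all 29 synthetases, the 9 genes of the eIF1, eIF2 and eIF2B class and 13 of 16 eIF3 subunits, but only 6 of 12 genes of the eIF4 class. Arrays of a group lay close together: the median within-group SD of the 64 genes was 0.11 on the log2 scale, against 0.13 for all 5700 genes above the limit on all arrays. Probe sets of 11 members carry the suffix that Affymetrix gives to probes shared by several transcripts, and their values may include transcripts of related genes.

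After NELF depletion few of these messenger RNAs differed from LacZ dsRNA cells. Of 72 members tested, 1 rose, none fell and 71 did not pass (limma with Benjamini-Hochberg adjustment over all 12975 probe sets, threshold 0.05). Over all probe sets tested, 4.56% passed, 1.85% higher and 2.71% lower. Among genes above the limit on all arrays, 167 of 5700 passed higher and 271 lower, against 1 and 0 of 64 members. The gene that rose was eIF6. The median log2 change of the members was 0.02, with 40 above and 32 below 0, and the median over all 9036 genes tested was 0.00. With 1 array left out the members' median ran from -0.03 to 0.05. At an unadjusted p under 0.05 there were 8 members, all 8 with positive values, where 14.9% of all probe sets reached that level. Over all 9036 genes tested, 708 reached it with positive and 826 with negative values. Of the 5700 genes above the limit on all arrays, 618 and 676 did. LacZ dsRNA array 1 was low for many members: it held the lowest of the 9 values for 25 of the 64 members above the limit on all arrays (39.1%), against 17.2% of the 5700 genes of that kind. The median deviation of these members from their means over the arrays was -0.11 on that array, against -0.00334 for the 5700 genes. Its part in the positive values was not tested. Removing single arrays gave between 1 and 4 calls, and removing both arrays with the fewest measured probe sets (NELF dsRNA array 3 and LacZ dsRNA array 1) gave 4, among them eIF6. Without the variance trend in limma there were 0. The share of all probe sets passing under these alternatives is not given here. These counts are therefore not read as a trait of the members.

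The intervals bound the differences among these arrays, gene by gene and without adjustment for the number of genes. As separate cultures are not stated, they may not cover variation between cultures. For 58 of the 72 tested members the 95% interval of the change lay within 1.5-fold either way, and for 62 within 2-fold. Over all genes tested, 50.7% had an interval within 1.5-fold. Among the 64 members above the limit on all arrays the share within 1.5-fold was 90.6%, against 80.4% of the 5700 genes of that kind. The 6 members of these 64 whose interval reached past 1.5-fold were the dimmer genes eEFSec, ValRS-m, GluRS-m and MetRS-m, and ThrRS and eIF4EHP. ThrRS varied within the LacZ dsRNA group (range 0.96). eIF4EHP varied within the NELF dsRNA and LacZ dsRNA groups (ranges 1.16 and 1.22).

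**Figure D1:**
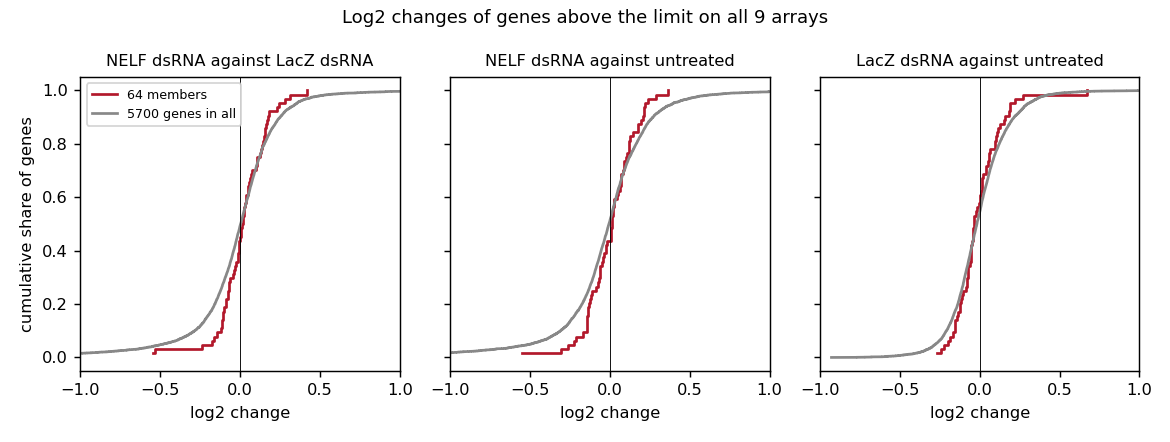
Cumulative share of genes (vertical axis) against log2 change (horizontal axis) in the 3 comparisons, for the 64 members above the detection limit on all 9 arrays (red) and all 5700 such genes (grey). The members' curve crosses the middle within 0.04 of 0 in each panel, and in NELF dsRNA against LacZ dsRNA it runs from -0.55 to 0.42.

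eIF6, which keeps the large ribosomal subunit from joining the small one too early and takes part in making that subunit, was the single member to rise. Its values were 10.05, 10.09 and 10.12 after NELF dsRNA, 9.76, 9.69 and 9.55 after LacZ dsRNA and 9.70, 9.73 and 9.74 in untreated cells. All 3 NELF dsRNA arrays lay above all 6 others. The level was 1.34-fold higher than after LacZ dsRNA (log2 change 0.42, SE 0.07, limma adjusted p = 0.0011) and 1.28-fold higher than in untreated cells (log2 change 0.36, SE 0.07, limma adjusted p = 0.0031). The LacZ dsRNA and untreated arrays overlapped, with a difference of -0.06 that did not pass (limma adjusted p = 0.815). Both calls held without any single array, and both were lost without the variance trend (limma adjusted p = 0.056 and 0.070).

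Of the other members, TrpRS and eIF3g1 also had all NELF dsRNA arrays above all 6 others, but their changes did not pass. TrpRS, the tryptophanyl-tRNA synthetase, lay at 9.95, 9.97 and 9.98 after NELF dsRNA, at 9.50, 9.94 and 9.91 after LacZ dsRNA and at 9.87, 9.81 and 9.88 in untreated cells. The eIF3 subunit gene eIF3g1 differed by 0.06 and 0.07 from those groups. With eIF6 this makes 3 members of the 69 measured on all arrays, while 6.4% of all 9266 such probe sets had this pattern. No member had all NELF dsRNA arrays below all others, a pattern of 6.96% of probe sets.

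**Figure D2:**
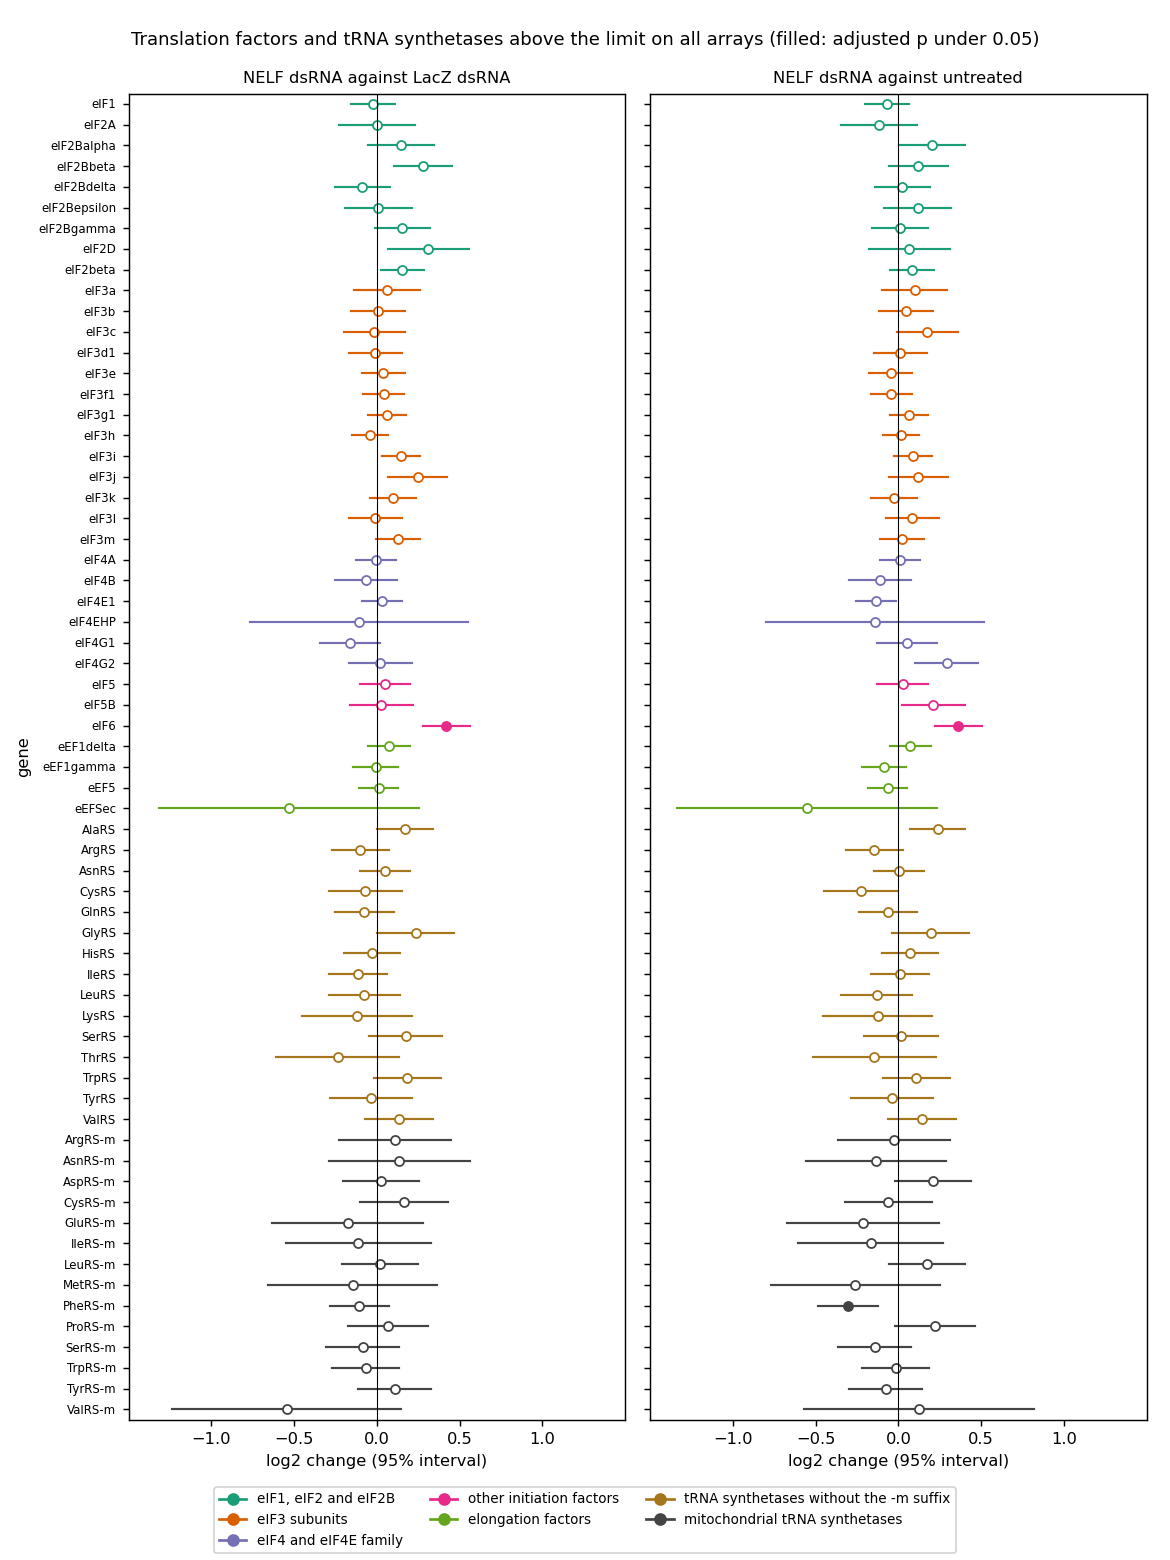
Log2 change (horizontal axis, with 95% interval) of the 64 members above the detection limit on all arrays, in NELF dsRNA against LacZ dsRNA (left) and NELF dsRNA against untreated (right), colored by class, filled where the adjusted p is under 0.05. eIF6 is filled in both panels and PheRS-m in the right one.

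In the class of eIF1, eIF2 and eIF2B, which by name also holds eIF2A and eIF2D, none of 9 genes passed against LacZ dsRNA. Of the subunits of eIF2 itself, only eIF2beta was among the 9. Their median log2 change was 0.15, with 7 above 0. For 4 of them (eIF2Bbeta, eIF2Bgamma, eIF2D and eIF2beta) the NELF dsRNA arrays lay wholly above the LacZ dsRNA arrays, a pattern of 10.6% of probe sets, while 11.5% lay wholly below. eIF2Bbeta, a subunit of the exchange factor eIF2B, lay at 8.69, 8.80 and 8.87 after NELF dsRNA, at 8.61, 8.54 and 8.38 after LacZ dsRNA and at 8.64, 8.66 and 8.70 in untreated cells. NELF dsRNA arrays thus lay above the LacZ dsRNA arrays and overlapped the untreated ones. The change of 0.28 (SE 0.08) against LacZ dsRNA did not pass (limma adjusted p = 0.077), but passed without LacZ dsRNA array 1 (limma adjusted p = 0.031).

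eIF2D, an initiation factor that can place tRNA without GTP, lay at 8.07, 8.25 and 8.09 after NELF dsRNA, at 7.69, 7.86 and 7.92 after LacZ dsRNA and at 7.83, 8.28 and 8.09 in untreated cells. Its change of 0.31 (SE 0.11) did not pass (limma adjusted p = 0.18), and the untreated arrays spanned those of NELF dsRNA. At the low end, eIF2Bdelta changed by -0.09 and eIF1, which guards start codon choice, by -0.02. Against untreated cells the median of the class was 0.07, again with none passing. There 1 of the 9 had its NELF dsRNA arrays wholly higher, a pattern of 14% of probe sets. In LacZ dsRNA against untreated cells the median was -0.07, with 6 of the 9 below 0. Of these arrays 2 genes were wholly lower, a pattern of 9.72% of probe sets. All 9 intervals lay within 1.5-fold in each comparison. Of the 5700 genes above the limit on all arrays, 80.4% did against LacZ dsRNA and 78.6% against untreated cells after NELF dsRNA. In LacZ dsRNA against untreated cells 85.8% did.

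Of 16 eIF3 subunit genes tested, none passed in any comparison, and all 13 above the limit on all arrays had intervals within 1.5-fold each time. Of the 5700 genes above the limit on all arrays, between 78.6% and 85.8% had such intervals in the 3 comparisons. For the 13 eIF3 genes the changes against LacZ dsRNA ran between -0.04 and 0.25, with a median of 0.04. eIF3j, a loosely bound subunit, stood at the top, with 11.06, 11.03 and 10.76 after NELF dsRNA, 10.75, 10.74 and 10.64 after LacZ dsRNA and 10.93, 10.68 and 10.89 in untreated cells. Its change of 0.25 (SE 0.08) did not pass (limma adjusted p = 0.14). Without NELF dsRNA array 3, the lowest of its group, it passed at 0.34 (limma adjusted p = 0.024).

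For 3 subunits the fly has a pair of genes, and detection separated the members of each pair. eIF3d1, eIF3f1 and eIF3g1 were above the limit on all 9 arrays, with group means that differed by at most 0.08 in any comparison. eIF3d2, eIF3f2 and eIF3g2 were at the limit or below it on most arrays. eIF3d2 lay at 3.74, 2.81 and 1.38 after NELF dsRNA, at 4.15, 3.68 and 3.89 after LacZ dsRNA and at 0.52, 3.60 and -2.27 in untreated cells, above the limit on 2 LacZ dsRNA arrays only. eIF3f2 lay at 3.96, 4.38 and -0.26 after NELF dsRNA, at 2.99, 3.68 and 4.19 after LacZ dsRNA and at 4.72, 3.24 and 2.15 in untreated cells. It was above the limit on 4 arrays and eIF3g2 on 3, with both found in all groups. These values are too close to background for a fold change.

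The cap-binding family also held detected and undetected genes. eIF4E1, the general cap-binding protein, lay at 10.66, 10.72 and 10.64 after NELF dsRNA, at 10.62, 10.71 and 10.60 after LacZ dsRNA and at 10.81, 10.81 and 10.80 in untreated cells. Both dsRNA groups were thus below the untreated arrays and overlapped each other, with changes against untreated of -0.14 for NELF dsRNA (limma adjusted p = 0.21) and -0.17 for LacZ dsRNA (limma adjusted p = 0.30) that did not pass. eIF4E6 lay at 5.11, 4.09 and 4.64 after NELF dsRNA, at 5.52, 5.24 and 4.58 after LacZ dsRNA and at 3.66, 5.10 and 4.47 in untreated cells. It was above the limit on 8 arrays, all but untreated array 1, with overlapping groups, and eIF4E3 was above it on 4. eIF4E4 was measured on 4 arrays, eIF4E7 on 2 and eIF4E5 on 1, none above the limit, so that eIF4E5 and eIF4E7 could not be tested.

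eIF4EHP, a cap-binding protein that represses translation, was above the limit throughout. It lay at 7.28, 7.09 and 6.12 after NELF dsRNA, at 6.14, 7.31 and 7.37 after LacZ dsRNA and at 7.07, 6.77 and 7.08 in untreated cells, so that NELF dsRNA array 3 and LacZ dsRNA array 1 stood low by about as much. These are the arrays with the fewest measured probe sets, and their part in the spread was not tested. The change of -0.11 against LacZ dsRNA had an interval from -0.77 to 0.55. The second probe set of the gene lay at 6.07, 6.29 and 5.70 after NELF dsRNA, at 5.90, 6.06 and 5.59 after LacZ dsRNA and at 6.22, 6.37 and 5.81 in untreated cells. There array 3 was the lowest of each group, and LacZ dsRNA array 1 did not stand low.

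The helicase eIF4A, which unwinds the mRNA leader, had group means of 12.80 after NELF dsRNA, 12.81 after LacZ dsRNA and 12.79 in untreated cells. The scaffold genes eIF4G1 and eIF4G2 changed by -0.16 and 0.02 against LacZ dsRNA. eIF4G2, a germline scaffold in the fly, lay at 8.75, 8.56 and 8.66 after NELF dsRNA, at 8.67, 8.51 and 8.73 after LacZ dsRNA and at 8.24, 8.39 and 8.46 in untreated cells. Both dsRNA groups lay above the untreated arrays, by 0.29 (limma adjusted p = 0.074) and 0.27 (limma adjusted p = 0.29), and neither passed. eIF4H2 was measured on all arrays and above the limit on none.

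eIF4B, which assists eIF4A, has 4 probe sets that did not move alike. The brightest, which stands for the gene, changed by -0.11 in NELF dsRNA against untreated cells and did not pass (limma adjusted p = 0.59). A second probe set lay at 9.83, 9.78 and 9.68 after NELF dsRNA, at 9.57, 9.67 and 9.63 after LacZ dsRNA and at 9.38, 9.37 and 9.48 in untreated cells. Against untreated cells it rose by 0.35 after NELF dsRNA (SE 0.07, limma adjusted p = 0.0040). The LacZ dsRNA arrays also lay wholly above the untreated arrays, by 0.21, which did not pass (limma adjusted p = 0.27). Another changed by -0.24 in NELF dsRNA against untreated cells and did not pass (limma adjusted p = 0.23), and the last, near the limit, by 0.36 (limma adjusted p = 0.755). Against LacZ dsRNA none of the 4 passed.

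The remaining initiation factors, eIF5, which triggers GTP hydrolysis on eIF2, and eIF5B, which joins the subunits, changed by 0.05 and 0.03 against LacZ dsRNA. eIF5B was 0.21 higher than in untreated cells, which did not pass (limma adjusted p = 0.22).

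Of 5 elongation factor genes, none passed in any comparison. The main tRNA-delivering factor eEF1alpha1 and the translocase eEF2 were not among these 5, so nothing is said here about them. eEF5, which helps ribosomes through difficult peptide bonds, lay at 13.03, 13.13 and 13.03 after NELF dsRNA, at 12.97, 13.09 and 13.08 after LacZ dsRNA and at 13.15, 13.12 and 13.10 in untreated cells. The arrays of both dsRNA groups overlapped, and the interval of the change between them ran from -0.11 to 0.13. eEF1delta and eEF1gamma, of the exchange complex of eEF1, changed by 0.07 and -0.01. eEFSec, the factor for selenocysteine, had values of 4.57, 4.86 and 3.86 after NELF dsRNA, against 5.13, 4.76 and 4.99 after LacZ dsRNA and 5.24, 5.48 and 4.21 in untreated cells. Its change of -0.53 did not pass (limma adjusted p = 0.58) and its interval ran from -1.32 to 0.25. eEF1alpha2, the second copy of the tRNA-delivering factor, was above the limit on 2 of 8 arrays with a value.

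**Figure D3:**
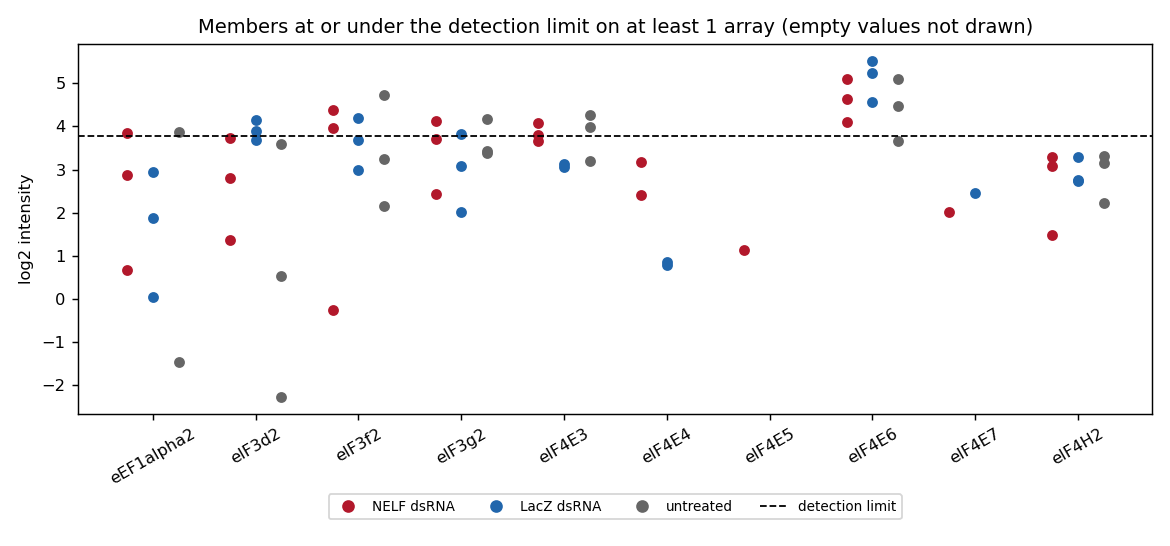
Log2 intensity (vertical axis) on each array of the 10 members with at least 1 array at or below the detection limit or empty, by gene, with NELF dsRNA, LacZ dsRNA and untreated arrays side by side and the limit of 3.77 as a dashed line. eIF4E6 lies above the line on 8 of 9 arrays, and eIF4E4, eIF4E5, eIF4E7 and eIF4H2 on none.

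None of the 15 synthetases without the -m suffix passed in any comparison. Against LacZ dsRNA their changes ran between -0.24 and 0.23 with a median of -0.04, and against untreated cells between -0.23 and 0.24 with a median of 0.00. The arrays of the LacZ dsRNA group spread widest. LacZ dsRNA array 1 held the lowest of the 9 values for 10 of the 15, and array 3 of that group the highest for 9. Over the 5700 genes above the limit on all arrays, those shares were 17.2% and 17.1%. The spread was not limited to synthetases: array 1 was lowest for 7 of the 13 detected eIF3 subunit genes, and array 3 highest for 20 of all 64 detected members (31.2%). The median range between arrays of a group was 0.08 for these synthetases after NELF dsRNA, 0.33 after LacZ dsRNA and 0.17 in untreated cells.

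ThrRS and LysRS, which charge threonine and lysine tRNAs, showed it most. ThrRS lay at 9.50, 9.58 and 9.50 after NELF dsRNA, at 9.19, 9.95 and 10.16 after LacZ dsRNA and at 9.86, 9.66 and 9.51 in untreated cells. LysRS lay at 9.52, 9.52 and 9.42 after NELF dsRNA, at 9.10, 9.76 and 9.98 after LacZ dsRNA and at 9.70, 9.51 and 9.63 in untreated cells. The LacZ dsRNA arrays thus surrounded the NELF dsRNA arrays in both genes, and the changes of -0.24 and -0.12 did not pass (limma adjusted p = 0.61 and 0.80). Without LacZ dsRNA array 1 both fell against LacZ dsRNA, by 0.52 and 0.38 on the log2 scale (limma adjusted p = 0.0043 and 0.013). This was the low end of a wide span. With 1 array left out, the change ran from -0.52 to -0.04 for ThrRS and from -0.38 to 0.06 for LysRS. Against untreated cells, their changes of -0.15 and -0.13 did not pass.

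GlyRS depended on the other end of that group. It lay at 8.82, 8.81 and 8.88 after NELF dsRNA, at 8.38, 8.52 and 8.91 after LacZ dsRNA and at 8.65, 8.63 and 8.64 in untreated cells. Its change of 0.23 did not pass (limma adjusted p = 0.33), and without LacZ dsRNA array 3 it was 0.39 (limma adjusted p = 0.010). Against untreated cells, where the arrays did not overlap, the change of 0.20 did not pass (limma adjusted p = 0.39). AlaRS was 0.17 and 0.24 higher after NELF dsRNA than after LacZ dsRNA and in untreated cells, and passed in neither (limma adjusted p = 0.33 and 0.10). Without LacZ dsRNA array 1 AlaRS passed against untreated cells. The second bright probe set of TrpRS changed by 0.29 against LacZ dsRNA, where the chosen one changed by 0.18, and neither passed.

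**Figure D4:**
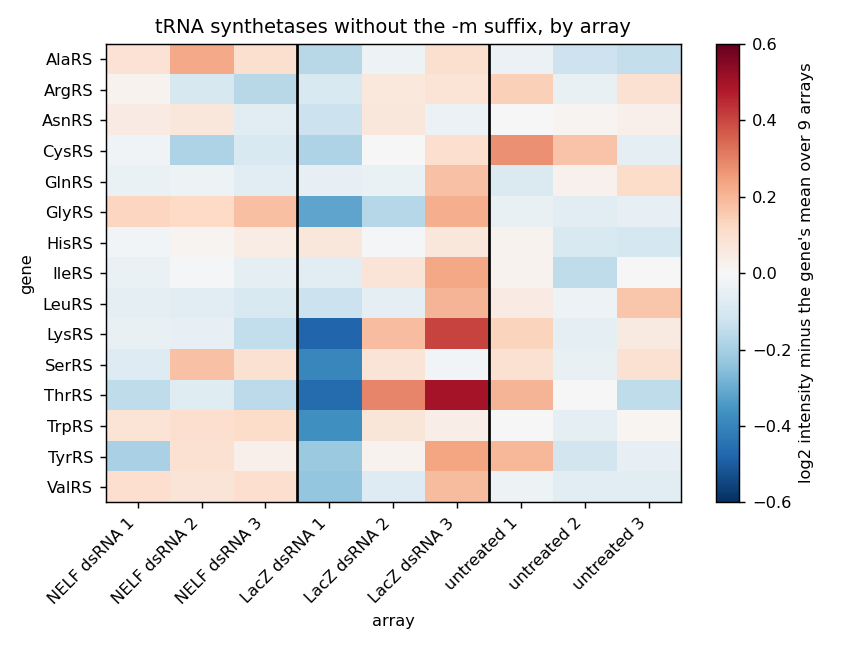
Log2 intensity minus the gene's mean over 9 arrays (color scale) for the 15 synthetases without the -m suffix (rows) on each array (columns, by group). LacZ dsRNA array 1 is the lowest of the 9 in 10 rows and LacZ dsRNA array 3 the highest in 9.

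Among the 14 mitochondrial synthetases LacZ dsRNA array 1 was lowest for 1 and array 3 highest for 2, and the difference between the classes was not tested. Of the 14, none passed against LacZ dsRNA (median -0.02). Against untreated cells 1 fell, PheRS-m, the single-chain enzyme for phenylalanine. It lay at 8.04, 8.18 and 8.00 after NELF dsRNA, at 8.15, 8.24 and 8.14 after LacZ dsRNA and at 8.38, 8.31 and 8.43 in untreated cells. NELF dsRNA arrays overlapped those of LacZ dsRNA, and both groups lay below the untreated arrays. Against untreated cells it was 1.24-fold lower (log2 change -0.30, SE 0.08, limma adjusted p = 0.0453), while the change of -0.11 against LacZ dsRNA did not pass (limma adjusted p = 0.65), nor did -0.20 in LacZ dsRNA against untreated cells (limma adjusted p = 0.43). The call was lost under 10 of 18 alternatives, including 6 of the 9 that leave out 1 array, at changes between -0.34 and -0.27.

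Of the mitochondrial enzymes, the lowest change against LacZ dsRNA was that of ValRS-m. It lay at 5.27, 5.74 and 4.60 after NELF dsRNA, at 5.89, 5.82 and 5.54 after LacZ dsRNA and at 5.61, 4.47 and 5.15 in untreated cells, and its change of -0.55 against LacZ dsRNA did not pass (limma adjusted p = 0.50). GluRS-m changed by -0.18, AsnRS-m by 0.14 and CysRS-m by 0.16 against LacZ dsRNA, each with overlapping arrays.

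In NELF dsRNA against untreated cells as a whole, 2 of 71 members passed, eIF6 higher and PheRS-m lower, where 6.16% of all probe sets passed, 2.63% higher and 3.53% lower. Among genes above the limit on all arrays, 235 of 5700 passed higher and 350 lower, against 1 and 1 of 64 members. This comparison shares its NELF dsRNA arrays with the one above. The median change of the members was 0.01, and that of all genes tested -0.01. Arrays did not overlap for 13 members that were higher and 3 that were lower of 70 measured, against 14% and 14.9% of probe sets. At an unadjusted p under 0.05 there were 8 members, where 17.6% of probe sets reached it. Removing single arrays gave between 1 and 3 calls in this comparison, again without the share of all probe sets beside them. In NELF dsRNA against LacZ dsRNA the arrays of 10 members lay wholly higher and of 0 wholly lower, of 70. Over all probe sets 22.1% did not overlap, 10.6% wholly higher and 11.5% wholly lower.

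LacZ dsRNA against untreated cells called none of 71 members, where 7 of 12974 probe sets (0.054%) passed limma, 0.0462% higher and 0.00771% lower. At an unadjusted p under 0.05 there were 6 members, against 10.4% of probe sets. Their median change was -0.04, and that of all genes tested -0.02. Without LacZ dsRNA array 1 the members' median was 0.02. Intervals lay within 1.5-fold for 59 of the 71, against 54.0% of all genes tested. Among genes above the limit on all arrays the share was 92.2% of the members and 85.8% of the 5700. Arrays did not overlap for 6 members that were higher and 7 that were lower of 69, against 8.61% and 9.72% of probe sets.

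Partners of these genes outside the naming rule were read from a list of 45, of which 41 had a probe set of their own. They comprise the other synthetase chains, release and rescue factors, mitochondrial translation factors, regulators of cap binding and kinases of eIF2. Against LacZ dsRNA 1 of 41 rose and none fell, where 4.56% of all probe sets passed. That count was 0 under 6 of the 18 alternatives and 2 under 1 of them, where the share of all probe sets is not given. Against untreated cells 2 rose and 1 fell, where 6.16% of all probe sets passed, and none passed in LacZ dsRNA against untreated cells.

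HBS1, a GTPase that with pelo rescues stalled ribosomes, rose in both NELF comparisons. It lay at 8.83, 8.88 and 8.99 after NELF dsRNA, at 8.42, 8.59 and 8.68 after LacZ dsRNA and at 8.58, 8.48 and 8.61 in untreated cells, so that its NELF dsRNA arrays lay above all others. The rise was 1.27-fold against each (log2 change 0.34 and 0.35, SE 0.08 for both, limma adjusted p = 0.0325 and 0.0226). It was lost under 8 and 6 of 18 alternatives, and without the 2 arrays with the fewest measured probe sets the change against LacZ dsRNA was 0.22 (limma adjusted p = 0.18). Its partner pelo, named after its values were seen, changed by -0.12 and -0.19 and did not pass.

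AsnS, asparagine synthetase, an amino acid enzyme and not a tRNA synthetase, lay at 7.68, 7.53 and 7.31 after NELF dsRNA, at 7.73, 7.86 and 7.87 after LacZ dsRNA and at 8.10, 7.95 and 7.94 in untreated cells. It fell 1.40-fold against untreated cells (log2 change -0.49, SE 0.11, limma adjusted p = 0.012), and its change of -0.31 against LacZ dsRNA did not pass (limma adjusted p = 0.15), although the arrays did not overlap. Lk6, the kinase of eIF4E1, rose 1.32-fold against untreated cells (log2 change 0.40, SE 0.09, limma adjusted p = 0.014) and changed by 0.21 against LacZ dsRNA (limma adjusted p = 0.28). The AsnS call was lost without NELF dsRNA array 3 or untreated array 1, and the Lk6 call without either of these or NELF dsRNA array 2. Both were also lost without the variance trend (limma adjusted p = 0.0905 for AsnS and 0.163 for Lk6) and with low values set to the 10th percentile (limma adjusted p = 0.0504 and 0.101).

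The regulators of the integrated stress response showed no call. The transcription factor gene crc, the fly ATF4, had group means of 11.82 after NELF dsRNA, 11.77 after LacZ dsRNA and 11.82 in untreated cells. Gcn2, the eIF2 kinase that senses uncharged tRNA, changed by -0.02 against LacZ dsRNA and by 0.25 against untreated cells (limma adjusted p = 0.24). PEK, the eIF2 kinase of the endoplasmic reticulum, lay at 8.91, 8.78 and 8.93 after NELF dsRNA, at 9.17, 8.63 and 9.21 after LacZ dsRNA and at 8.50, 8.46 and 8.47 in untreated cells. Both dsRNA groups lay above the untreated arrays, by 0.40 (limma adjusted p = 0.072) and 0.52 (limma adjusted p = 0.12). Without LacZ dsRNA array 2 both passed (limma adjusted p = 0.00533 and 0.00668). That array is not part of NELF dsRNA against untreated cells, where the change stayed at 0.40. There PEK also passed with only the 2 groups compared (limma adjusted p = 0.0037). The poly(A)-binding protein gene pAbp changed by -0.02 against LacZ dsRNA, and Thor, which encodes the fly 4E-BP, was not analysed here.

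Sbds and mTor are also named after their values were seen. Sbds, which takes part in the release of eIF6 from the large subunit, lay at 8.61, 8.39 and 8.73 after NELF dsRNA, at 8.39, 8.18 and 8.02 after LacZ dsRNA and at 8.21, 8.34 and 8.24 in untreated cells. All NELF dsRNA arrays lay above the others, by 0.38 and 0.31 in the mean, and neither change passed (limma adjusted p = 0.064 and 0.12). mTor, the growth-regulating kinase, changed by -0.40 and -0.30 and did not pass (limma adjusted p = 0.12 and 0.25).

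**Figure D5:**
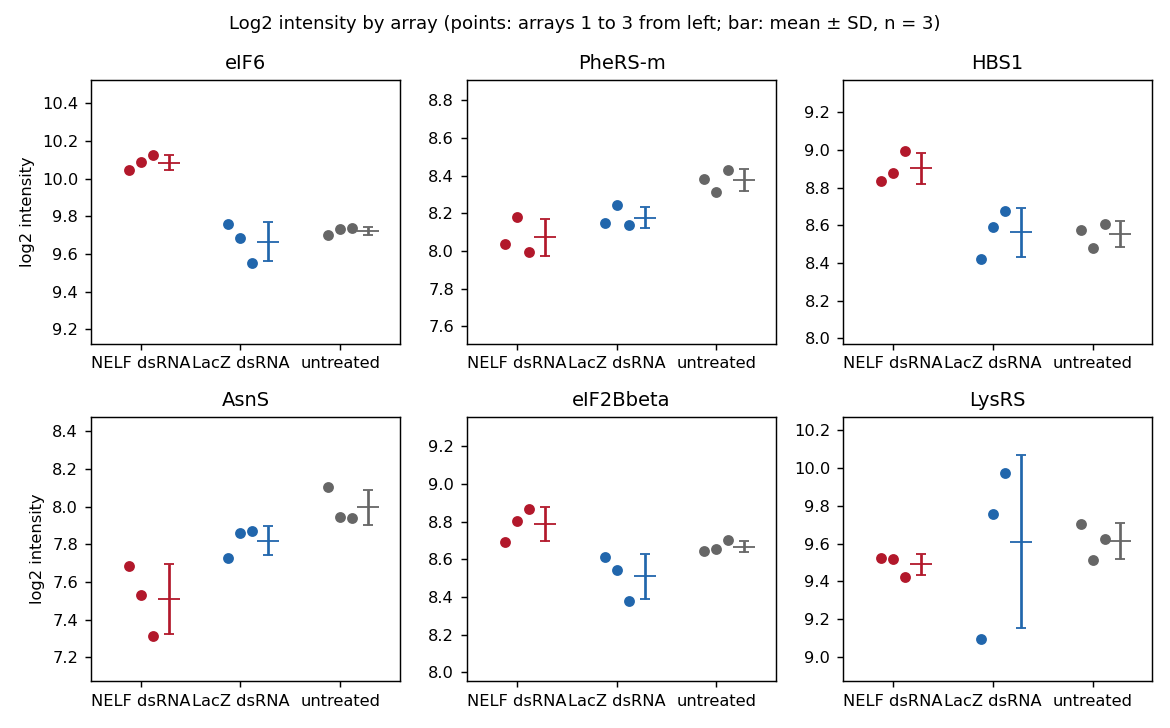
Log2 intensity (vertical axes, each spanning 1.4 units) of eIF6, PheRS-m, HBS1, AsnS, eIF2Bbeta and LysRS on the 3 NELF dsRNA, 3 LacZ dsRNA and 3 untreated arrays, with mean ± SD (n = 3) beside the points. The NELF dsRNA arrays of eIF6 and HBS1 lie above all others, and the LacZ dsRNA arrays of LysRS spread from 9.10 to 9.98.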

How the data were processed

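Each array has a single deposited value per probe set, taken here as log2 intensity; the authors' scale is not stated, and base 2 was read off the range of the values. Per the labels, scanner data came from GeneChip Operating Software and were imported into Rosetta Resolver. The sources used here do not give how the authors summarized or normalized the probes. Also per the labels, 1 µg of total RNA was amplified and 10 µg of cRNA hybridized for 16 h. Of the cells outside 95 control probe sets 21.2% were empty and were kept as missing. Over the 9266 complete probe sets the array medians spanned 0.025, so no normalization was added. Probe sets were named by the platform annotation, 13086 of 17899 with 1 gene, and all 74 members matched the RefSeq gene table by Entrez gene ID. The files name no genome build, so no coordinates are given.

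The comparisons used limma 3.58.1 in R 4.3.3 (lmFit, eBayes with a mean-variance trend) on all 9 arrays, 1 mean per group, for probe sets with at least 2 values in each group compared. The number of arrays limits the precision. The script was run on simulated data with independent noise on every array. Shifts of a whole array were not simulated, so that run says nothing about them. Named are members that passed, the 2 highest and 2 lowest changes per class against LacZ dsRNA among those measured on all arrays, and members with a group wholly under the limit. The rule also names the dsRNA targets and, of the partners, those that passed and Thor, crc, Gcn2, PEK and pAbp. Further members are named for detection, for arrays that did not overlap or as parts of a complex. Members and lists were chosen with earlier results of these data known. Same-numbered arrays of different groups had deviations correlating between -0.11 and 0.10, so numbers were not taken as pairs.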

Additional observations from a re-analysis of the deposited data

How the results depend on the processing

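Counts, medians and detected genes were recomputed under 18 alternatives, and 7 dim genes under the 11 to 17 that gave a value: no variance trend, quantile normalization, a floor at the 10th percentile, only complete or only detected probe sets, the mean over a gene's probe sets, only the 2 groups compared, a replicate block, each array left out and, chosen after seeing the data, both arrays with the fewest measured probe sets left out. In NELF dsRNA against LacZ dsRNA 1 member passed, 0 without the trend, 1 to 4 with 1 array left out and 4 without the 2 arrays. In NELF dsRNA against untreated cells 2 passed, 0 without the trend, 1 under quantile normalization, 1 with the replicate block, 1 to 3 with 1 array left out and 1 without the 2 arrays. In LacZ dsRNA against untreated cells 0 passed in all. The median change of the members in LacZ dsRNA against untreated cells, -0.0353, was -0.056 to 0.0241 with 1 array left out and 0.0241 without the 2 arrays. With 1 array left out that median was -0.0291 to 0.0486 in NELF dsRNA against LacZ dsRNA. In NELF dsRNA against untreated cells it was -0.0119 to 0.0431. Shares of all probe sets passing under each alternative are not given, so these counts do not set the members apart from other genes. The causes were not tested. No called change of a named gene turned its direction. The replicate block ended the call of PheRS-m (limma adjusted p = 0.0708) and PEK passed with it against untreated cells (limma adjusted p = 0.0443). Dim members, near background, could not be read in either direction.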
